A study of Homo sapiens with 6 samples.

Results

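The replication-dependent histone genes of chromosome 6 were examined for acetylation of histone H3 at lysine 27 (H3K27ac), a mark of active promoters and enhancers, in a clear cell sarcoma (CCS) line. They were taken as the protein-coding genes of the GENCODE annotation, version 44, that lie on chromosome 6 between positions 25900000 and 28200000 (hg38) and whose symbols begin with H1-, H2AC, H2BC, H3C or H4C. A total of 53 of 20015 protein-coding genes met this rule. They comprised 6 linker H1, 11 H2A, 14 H2B, 10 H3 and 12 H4 genes, and gaps longer than 300 kb divided them into 3 subclusters of 32, 5 and 16 genes.

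Chromatin immunoprecipitation followed by sequencing (ChIP-seq) was performed with an H3K27Ac antibody in 3 samples of SU-CCS-1, an established human CCS line, and 3 input samples of the same line served as controls. All 6 samples carried the EWSR1::ATF1 genotype, a fusion (EA1) that retains the DNA-binding domain of ATF1, and no sample without the fusion was compared. The measurements were a single merged list of 30784 broad peaks with no height, read count or value per sample, so neither the depth nor the spread between the 3 H3K27ac samples can be read from it. A peak is a stretch of chromosome that the peak caller marked as enriched over input, and its width is given in bases.

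Histones package DNA into nucleosomes. H2A and H2B pair with each other, H3 pairs with H4, and these 4 core histones form the spool that DNA wraps around, while H1 binds the linker DNA between spools. The replication-dependent genes are switched on when a cell copies its DNA, have no introns, and produce mRNAs that end in a conserved stem-loop instead of a poly(A) tail. NPAT, which gathers at these genes in the histone locus body, promotes their transcription, and SLBP binds the stem-loop.

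The sequences of the genes fitted this description. All 53 had a single exon in their canonical transcript, with a median span of 486 bases against 22913 bases for all protein-coding genes. A 16-base stem-loop with 6 paired bases around a 4-base loop was found near the transcript end of 51 of 53 genes. The stem differed by class. It began with ggccct in all 12 H4 genes and with ggctct in all 39 genes of the other classes that had one. The most frequent forms of each stem are shown with the loop in capitals, the first from 29 H1, H2A, H2B and H3 genes, the second from 8 H1, H2B and H3 genes, and the third from 9 H4 genes.
Common form: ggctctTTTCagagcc
Form with a TTTA loop: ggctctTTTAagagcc
H4 form: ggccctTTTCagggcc
The 2 genes without an exact stem, H2AC11 and H2AC15, each held a stem with 5 of 6 positions complementary. The other position placed T opposite G, which the search did not count as a pair. This relaxed search was added after these genes had been seen to lack the exact form. It also matched a second stretch of H2AC11, at chr6:27133386-27133401, which is not shown.
H2AC11: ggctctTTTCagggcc
H2AC15: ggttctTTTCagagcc
The H2AC11 element lay at chr6:27133515-27133530 on the plus strand and that of H2AC15 at chr6:27837885-27837900 on the minus strand (hg38).

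Promoter sequences, from 250 bases before to 50 bases after the start site, were taken from the RefSeq table for GRCh38.p14 and matched 48 of 53 genes, each at the canonical GENCODE start. H2AC12, H3C11, H3C12, H4C1 and H4C3 had no entry. The stretches below show how the classes differ and which promoters carried or lacked acetylation. Capitals mark CCAAT, the TATA box (TATAAA), the octamer (ATTTGCAT), the H1 box (AAACACA), and the ATF/CREB motifs TGACGTCA and TGANNTCA, on either strand. TGACGTCA is one form of TGANNTCA, and a search for TGAGTCA, the AP1 motif, found none in any member promoter. H2AC17 (chr6:27893136-27893435, minus strand), H1-2 (chr6:26056421-26056720, minus strand) and H4C11 (chr6:27823842-27824141, plus strand) were the most broadly acetylated genes of their classes, and every one of their 300 bases lay in a peak. H2AC14 (chr6:27814728-27815027, minus strand) was also covered throughout and holds TGACGTCA. The promoter of H2AC11 (chr6:27132793-27133092, plus strand) sat almost entirely in a gap between 2 peaks, with 32 bases in a peak. H1-6 (chr6:26108086-26108385, minus strand) and H4C7 (chr6:26246947-26247246, minus strand) had no base in a peak. The same held for the testis gene H2AC1 (chr6:25726513-25726812, minus strand), which lies outside the interval and whose window also holds the start site of H2BC1. H2AC14, H2AC11 and H4C7 were chosen for display after their values were seen.
H2AC17: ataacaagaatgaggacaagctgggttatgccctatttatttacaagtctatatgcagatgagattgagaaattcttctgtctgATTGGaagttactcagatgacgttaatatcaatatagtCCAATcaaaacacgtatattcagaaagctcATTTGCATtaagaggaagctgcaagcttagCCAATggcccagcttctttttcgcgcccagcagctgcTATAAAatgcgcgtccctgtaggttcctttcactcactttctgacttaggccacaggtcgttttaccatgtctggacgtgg
H2AC14: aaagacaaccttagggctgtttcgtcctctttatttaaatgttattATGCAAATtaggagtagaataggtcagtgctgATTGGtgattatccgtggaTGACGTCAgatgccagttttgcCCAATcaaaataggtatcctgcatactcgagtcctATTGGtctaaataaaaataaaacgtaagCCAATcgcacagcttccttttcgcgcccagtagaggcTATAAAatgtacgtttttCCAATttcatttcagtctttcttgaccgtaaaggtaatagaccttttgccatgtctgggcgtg
H2AC11: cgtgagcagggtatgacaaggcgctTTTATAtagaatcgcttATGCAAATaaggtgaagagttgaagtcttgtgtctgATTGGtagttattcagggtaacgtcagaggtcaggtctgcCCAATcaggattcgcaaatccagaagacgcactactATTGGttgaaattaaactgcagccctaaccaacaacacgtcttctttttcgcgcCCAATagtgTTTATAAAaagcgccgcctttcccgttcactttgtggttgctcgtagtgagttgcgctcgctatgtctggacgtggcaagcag
H1-2: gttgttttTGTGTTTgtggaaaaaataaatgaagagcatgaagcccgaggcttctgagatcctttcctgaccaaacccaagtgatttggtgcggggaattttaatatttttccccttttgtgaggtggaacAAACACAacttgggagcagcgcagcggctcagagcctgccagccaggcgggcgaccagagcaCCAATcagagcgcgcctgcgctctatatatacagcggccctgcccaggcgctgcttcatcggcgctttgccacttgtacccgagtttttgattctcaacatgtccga
H4C11: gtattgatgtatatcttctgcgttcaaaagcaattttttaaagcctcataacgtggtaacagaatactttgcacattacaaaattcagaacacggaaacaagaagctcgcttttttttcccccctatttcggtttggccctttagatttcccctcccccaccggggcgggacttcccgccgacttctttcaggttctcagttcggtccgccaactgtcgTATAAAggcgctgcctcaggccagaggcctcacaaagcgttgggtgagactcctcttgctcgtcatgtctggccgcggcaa
H1-6: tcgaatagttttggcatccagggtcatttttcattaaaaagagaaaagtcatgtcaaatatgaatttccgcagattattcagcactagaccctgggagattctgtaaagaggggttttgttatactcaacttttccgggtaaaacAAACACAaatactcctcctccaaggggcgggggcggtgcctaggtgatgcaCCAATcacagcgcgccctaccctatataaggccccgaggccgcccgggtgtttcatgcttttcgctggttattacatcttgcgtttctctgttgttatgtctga
H4C7: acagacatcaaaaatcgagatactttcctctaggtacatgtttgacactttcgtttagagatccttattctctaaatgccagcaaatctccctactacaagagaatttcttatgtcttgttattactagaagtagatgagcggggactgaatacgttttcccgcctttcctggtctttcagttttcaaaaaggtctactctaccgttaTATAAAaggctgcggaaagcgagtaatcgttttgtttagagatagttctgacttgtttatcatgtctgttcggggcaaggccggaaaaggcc
H2AC1: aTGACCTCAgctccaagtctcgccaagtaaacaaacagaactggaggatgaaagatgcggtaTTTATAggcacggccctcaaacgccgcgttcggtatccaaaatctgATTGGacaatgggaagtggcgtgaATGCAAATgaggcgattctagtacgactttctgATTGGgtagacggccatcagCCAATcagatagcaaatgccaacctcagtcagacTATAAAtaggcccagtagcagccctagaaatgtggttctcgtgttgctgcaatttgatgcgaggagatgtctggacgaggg

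Nearly all of the histone genes carried H3K27ac at their starts. A peak lay within 1 kb of a start site of 51 of 53 genes (96.2%, 95% Wilson interval 87.2 to 98.96), against 61.7% of all protein-coding genes. This interval covers counting error over genes only, and the genes are not independent because 36 of them shared a peak with another member. The mark was read from a pool of cells, so a peak does not tell how many of the cells, or which stage of the cell cycle, carried it.

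The 2 genes without a peak were H1-6 and H4C7. H1-6 encodes a testis-specific linker histone, and its nearest peak lay 2815 bases from the start site. H4C7 encodes an H4 histone, and its nearest peak lay 1705 bases away. Both sat inside subcluster 1 with acetylated neighbours on either side, and they were the 2 genes recovered when the window was widened to 3 kb. On the inner side of the limit there was no gene near 1 kb, since the farthest peak among the other 51 genes was 109 bases from a start site, at H3C2. The testis histone genes H2AC1 and H2BC1 lie just outside the interval and were not counted. They had no peak within 1 kb either, and their nearest peaks were 235479 and 235264 bases away. The promoter of H1-6 held the H1 box and the CCAAT box, each found on either strand in all 6 H1 promoters. That of H4C7 held a TATA box, found in 6 of 10 H4 promoters, which began 42 bases upstream of the start site, and its GC content of 40.3% was the lowest of the H4 class (median 47.8%). Each of the 2 genes ended in the stem-loop of its class.

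Among the linker H1 genes, which encode the histones that bind between nucleosomes, 5 of 6 had a peak (83.3%, interval 43.6 to 96.99). All 11 H2A genes, all 14 H2B genes and all 10 H3 genes had a peak, with lower interval limits of 74.1%, 78.5% and 72.2%. Of the H4 genes, 11 of 12 had one (91.7%, interval 64.6 to 98.5). The intervals of the 5 classes overlapped. By location, 30 of 32 genes of subcluster 1, 5 of 5 genes of subcluster 2 and 16 of 16 genes of subcluster 3 had a peak, and these intervals overlapped as well.

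**Figure D1:**
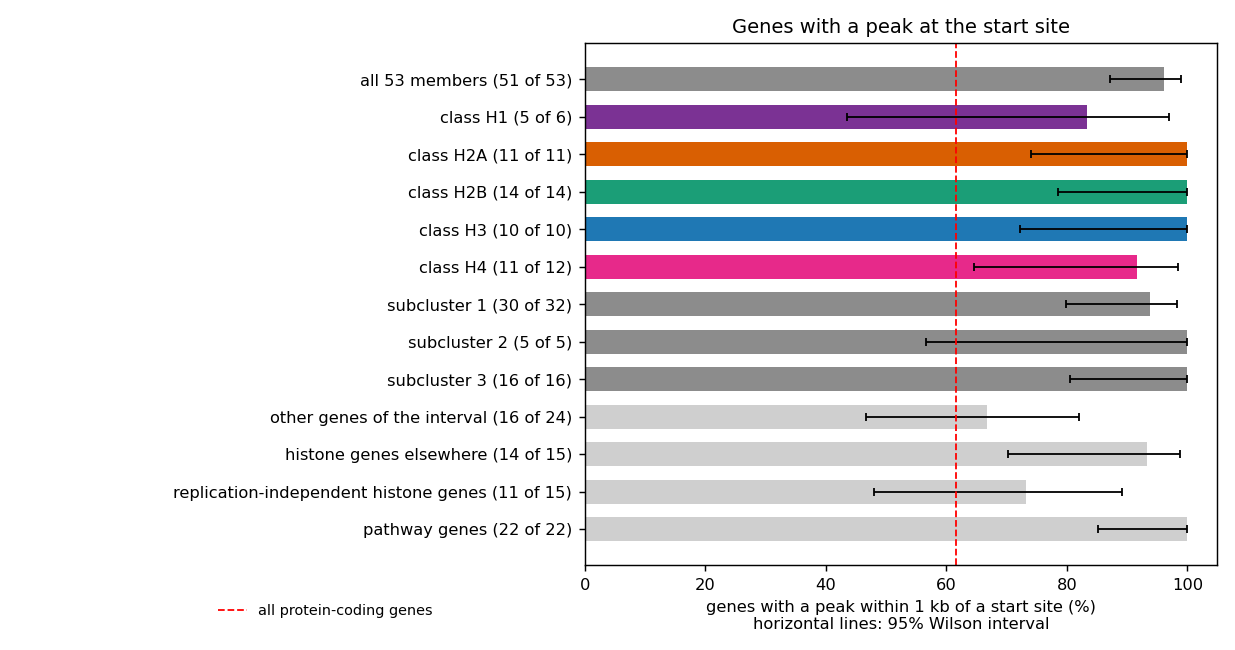
Share of genes with an H3K27ac peak within 1 kb of a start site, in percent, for all 53 members, the 5 histone classes, the 3 subclusters and 4 groups of other genes; horizontal lines are 95% Wilson intervals and the dashed line is all protein-coding genes. The members stood at 96.2% against 61.7% for all genes, and the other genes of the interval stood at 66.7%.

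The peaks at these genes were broad. The widest peak within 1 kb of a member had a median width of 2870 bases (quartiles 2000 to 3900, n = 51), compared with 1590 bases (quartiles 1100 to 2210) over the 12340 protein-coding genes with a peak. A peak of 2 kb or more lay at 39 of 53 members, against 19.5% of all protein-coding genes. Counting each of the 44 distinct peaks once gave a median of 2365 bases, and joining peaks across gaps of up to 1 kb gave 4500 bases for members and 1680 bases for all genes with a peak.

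Median widths by class ran from 2350 bases for H4 to 3580 bases for H2A, with H2B at 2870, H1 at 2860 and H3 at 3040 bases. The spread within each class exceeded the differences between these medians. For H2A the widths ran from 1120 to 7290 bases, for H2B over the same span, for H3 from 1280 to 7290 bases, and for H4 from 1020 to 5370 bases. Among the H1 genes the peak was 2020 bases wide at H1-1, 2800 at H1-4, 2860 at H1-3, 3420 at H1-5 and 4880 at H1-2. All of these exceeded the median of all genes. The narrowest peak belonged to H4C9 in subcluster 2, at 1020 bases, below the lower quartile of all genes with a peak.

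**Figure D2:**
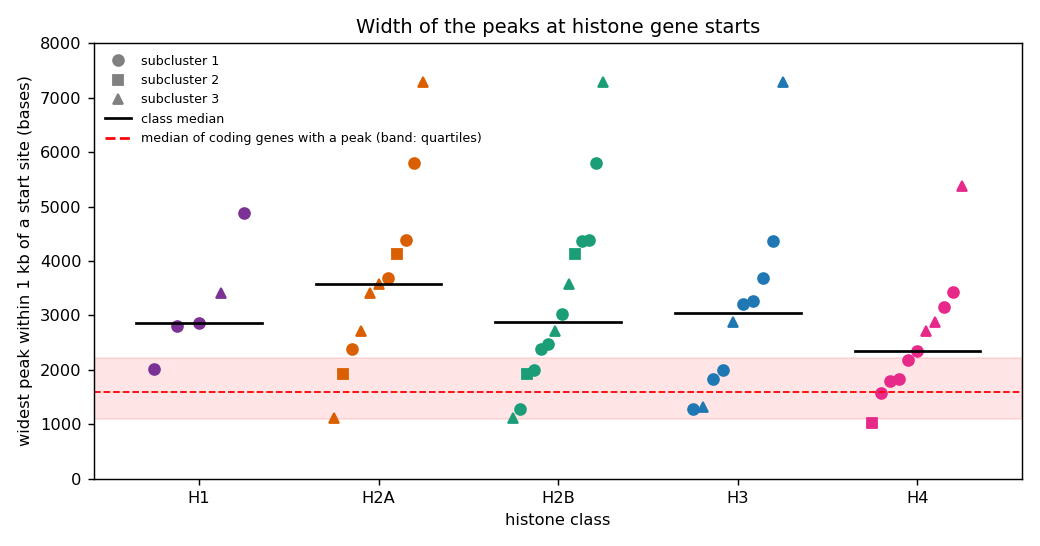
Width in bases of the widest H3K27ac peak within 1 kb of a start site for each of the 51 members with a peak, by histone class, with the marker shape giving the subcluster, black lines the class medians, and the dashed line and band the median and quartiles of all protein-coding genes with a peak. The same 7290-base peak appears under H2A, H2B and H3, and the H4 genes include the narrowest peak at 1020 bases.

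The broadest peak of the group spanned 7290 bases (chr6:27889231-27896520) at the right end of subcluster 3 and ranked 252 of 30784 peaks by width. It covered H2AC17, H2BC17 and H3C12, genes for an H2A, an H2B and an H3 histone. The next was a 5810-base peak, ranked 450, over the H2BC4 and H2AC6 pair of subcluster 1. H4C11, an H4 gene of subcluster 3, followed with 5370 bases and rank 551. For H4C11, 76.4% of the 50-base words within 1 kb of the start site occurred once in the genome, the lowest value of the group, where the median was 98.6%. A 50-base read from one of the remaining words has no single place by its own sequence, although its mate in the read pair may give one, and the effect on the peak was not tested. Words at H1-6 and H4C7 were 100% and 96.5% unique.

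The peaks covered whole canonical transcripts. For each of the 44 genes whose canonical start site lay in a peak, the peak held the entire canonical transcript and ran past its end, by a median of 1076 bases (range 180 to 4460). Measured from the start site, such peaks reached 1123 bases upstream and 1648 bases downstream in the median, compared with 668 and 847 bases for 10717 protein-coding genes. The member transcripts are short, with a median span of 486 bases, which the 847-base reach of all genes would also cover. Full coverage is therefore in part set by gene length, and it was not counted for other genes. The downstream reach exceeded the upstream reach at 30 of the 44 members. This was not counted over all protein-coding genes, whose median reach was also longer downstream. At 1050 bases upstream, 69.8% of members and 14.9% of all protein-coding genes were in a peak. The positions given here were read off the profile and not fixed in advance, and the classes hold 6 to 14 genes each. By class, at 1050 bases upstream, 90.9% of H2A, 92.9% of H2B and 80% of H3 genes were in a peak. The share was 33.3% for both H1 and H4 genes. At 750 bases upstream it was 100% for H2A, 92.9% for H2B, 60% for H3, and 50% for both H1 and H4 genes. At 1250 bases upstream 0 of 6 H1 genes were in a peak (upper limit of the interval 39.03%). Downstream, at 1550 bases, the shares were 83.3% for H1, 72.7% for H2A, 50% for H2B, 40% for H3 and 41.7% for H4 genes. The order depended on the position, since H1 stood at 50% and H2A at 81.8% at 1750 bases downstream. For the 18 H2A and H2B genes that lie in head-to-head pairs, 1050 bases upstream is beyond the start site of the partner gene.

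**Figure D3:**
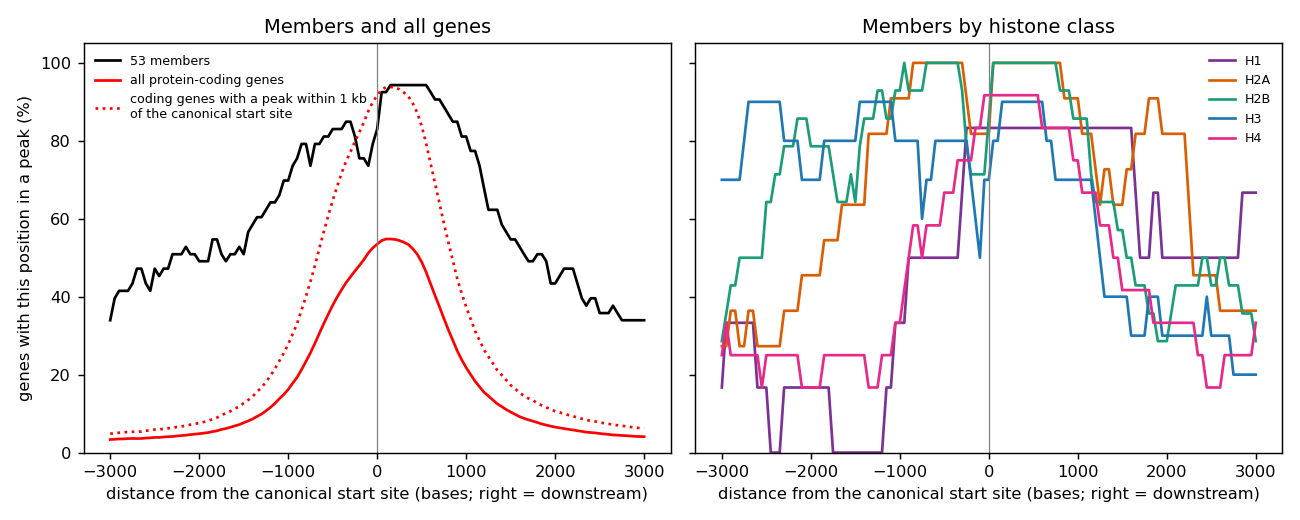
Share of genes, in percent, with each position from 3000 bases upstream to 3000 bases downstream of the canonical start site inside an H3K27ac peak, for the 53 members, all protein-coding genes and coding genes with a peak (left) and for the 5 histone classes (right). Members stayed above all genes throughout, dipped just upstream of the start site, and H1 and H4 genes lay below the other classes 1050 bases upstream.

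The canonical start site itself lay in a peak at 44 of 53 members (83.02%, interval 70.8 to 90.8), against 53.5% of all protein-coding genes. Among genes with a peak within 1 kb of that start site the order was the other way, with 44 of 51 members (86.3%, interval 74.3 to 93.2) against 91.7% of 11687 protein-coding genes (interval 91.2 to 92.2), a comparison added after the data had been seen. At 100 bases upstream, 73.6% of the 53 members and 87.6% of those 11687 genes were in a peak. Of the 53 members, 6 had their start site in a short gap between 2 peaks that were both within 1 kb. The same held for 206 of all 20015 protein-coding genes (1.03%). In all, 9 members had a start site outside a peak, these 6 among them. These 6 genes belonged to the core classes, 2 each of H3, H2B and H2A. The gap was 250 bases at H3C2, 230 at H3C3 and 220 at H2BC5. H2BC11 and H2AC11 shared a gap of 290 bases, and H2AC13 sat in one of 270 bases. In each case the gap reached farther upstream than downstream. The peak over the gene body began 18 to 109 bases downstream of the start site, and the upstream peak ended 142 to 273 bases away. Of the 50-base words near these 6 genes, a median of 97.4% were unique, with H2AC13 the lowest at 80.8%. The remaining 3 were H1-6, H4C7 and H3C6. H3C6 had its 3260-base peak over an alternative start site at position 26224199 while the canonical start site at 26225135 and the whole canonical transcript lay outside it.

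Coverage of the 300-base promoter window was counted by class for the 48 genes with a promoter entry. All 300 bases lay in peaks for 5 of 6 H1, 8 of 10 H2A, 9 of 14 H2B and 8 of 10 H4 genes, but for 2 of 8 H3 genes. The other 6 H3 promoters were covered in part, from 70 bases at H3C3 to 170 at H3C10. With 8 H3 promoters in the table, this is a count with no test. It left out H3C11 and H3C12, which had no entry. Their start-site peaks reached 1654 and 5694 bases upstream and 1215 and 1595 bases downstream, past both edges of the window. The low H3 share thus rests in part on missing entries. Of the other genes without an entry, H2AC12 and H4C1 had such peaks too, while the peak at H4C3 reached 192 bases upstream.

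H2A and H2B genes commonly lie head to head, so that both are read outward from a common promoter. There were 9 such pairs with start sites 194 to 251 bases apart (median 244), and they held 18 of the 25 H2A and H2B members. A single peak covered both start sites in 7 of the 9 pairs, with widths from 2380 bases at H2AC7 and H2BC7 to 7290 bases at H2AC17 and H2BC17. In the remaining 2 pairs, H2BC11 with H2AC11 and H2BC13 with H2AC13, the peaks flanked the shared promoter on both sides. Peaks covered 0% of the bases between the start sites in the first and 0.816% in the second. Joining peaks across gaps of up to 1 kb placed all 9 pairs under 1 peak. That outcome was fixed by the gaps at these 2 pairs, 290 and 270 bases, which are shorter than 1 kb. How often 1 peak covers both start sites of other head-to-head gene pairs was not counted. The H2A and H2B genes in pairs had a median widest peak of 3580 bases (range 1120 to 7290, n = 18) and those outside pairs 3020 bases (range 1280 to 4360, n = 7), and these ranges overlapped.

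Several members lay under the same peak. Of the 44 distinct peaks at members, 23 lay at 1 member, 19 at 2 members and 2 at 3 members. Counted over all protein-coding genes, 21 of these 44 peaks (47.7%) lay at more than 1 gene, against 15.5% of the 13613 peaks at protein-coding genes, a count added after the data had been seen. The head-to-head pairs lie closer together than the 1 kb window, so their sharing follows in part from the window. H3C8 and H2BC10, whose start sites were 1518 bases apart, lay under the same 4360-base peak, and H2AC16 and H1-5 under the same 3420-base peak. H3C1 and H4C1, which encode partners in the nucleosome core, shared an 1830-base peak.

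Acetylation was concentrated within the subclusters. With 5 kb added on each side, peaks covered 30.3% of the bases of subcluster 1 (279 kb), 42.7% of subcluster 2 (25.2 kb) and 38.8% of subcluster 3 (96.4 kb). Between subclusters 1 and 2 the share was 6.31%, and between subclusters 2 and 3 it was 2.45%. It was 3.41% before the first and 2.19% after the last subcluster. Chromosome 6 as a whole stood at 1.74% and all chromosomes at 1.50%. Subcluster 2 held the most members per 100 kb, 19.8, compared with 16.6 in subcluster 3 and 11.5 in subcluster 1, in the same order as the covered shares. Median widths of the widest peak were 2830, 1920 and 3145 bases in subclusters 1, 2 and 3, with ranges that overlapped.

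**Figure D4:**
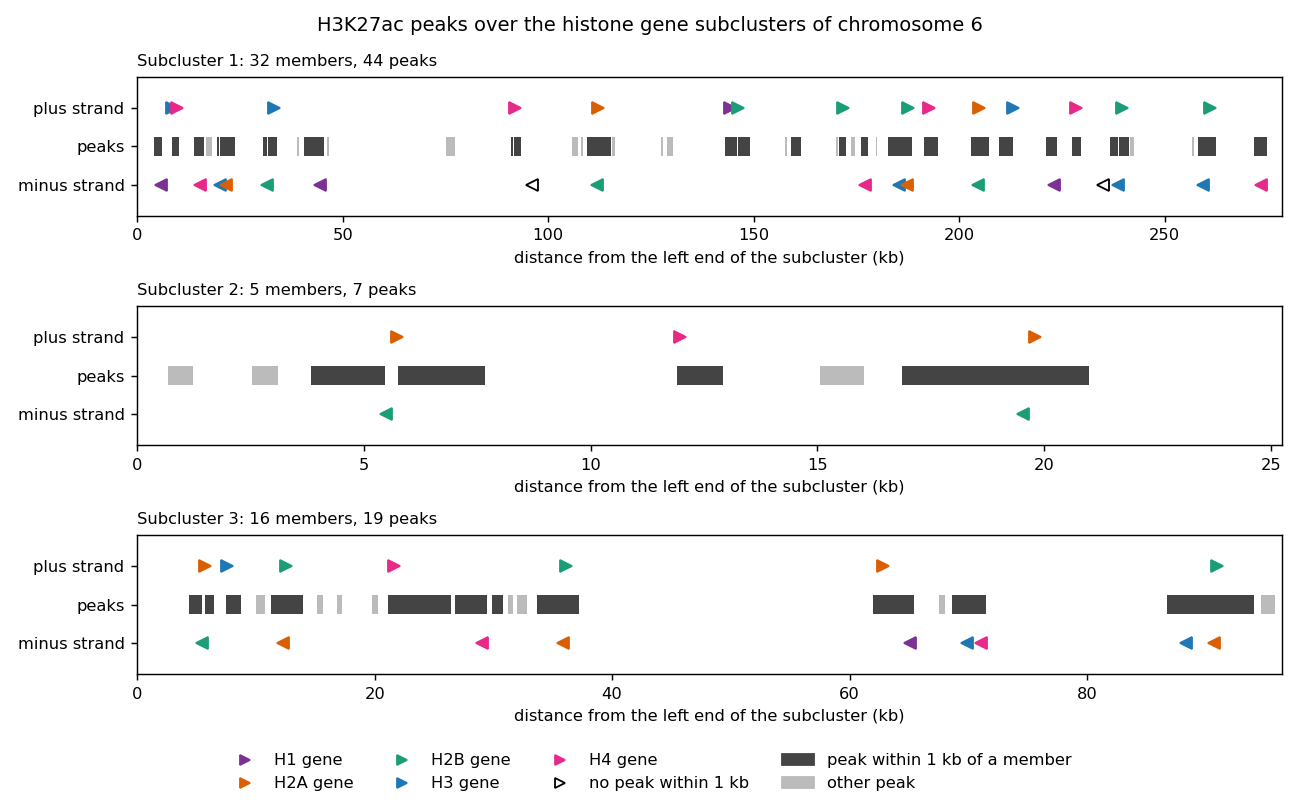
Map of the 3 subclusters, drawn in kb from the left end of each with 5 kb added on both sides, showing the start site and direction of each histone gene by class and the H3K27ac peaks between the strands. The 2 open triangles in subcluster 1 are H1-6 and H4C7, the genes without a peak within 1 kb; dark bars are peaks at members and light bars other peaks.

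The subclusters also held 26 peaks that were not within 1 kb of a member. They were narrow, with a median width of 550 bases (range 400 to 2140), and 22 of them lay within 5 kb of a member's start site. This closeness is in part set by definition, since members are dense here and the subclusters end 5 kb past their outer members. The share of subcluster bases within 5 kb of a member's start site was not computed. The broadest, of 2140 bases, lay at HFE, a regulator of iron uptake. The other 25 were within 1 kb of no start site of a coding gene, lncRNA gene, histone pseudogene or tRNA gene in the annotations used.

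When peaks within 12.5 kb of each other were stitched, as is done to call super-enhancers, 17049 regions resulted and 9 of them held members with a peak. The region from H1-4 to H2BC9 spanned 99.3 kb, joined 20 peaks of 40.96 kb in sum at 15 members, and ranked 19 of 17049 by summed width. Those from H2BC13 to H2BC15 and from H1-1 to H1-2 ranked 106 and 123, with 22.1 and 20.99 kb in peaks. The whole of subcluster 2 formed 1 region of rank 507. H4C3, which lies near H1-6, was in a region of 2 peaks that ranked 5895. These ranks used width alone because the list has no signal, and they are not super-enhancer calls.

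Promoter sequences set the classes apart. CCAAT, bound by NF-Y, was present in all H1, H2A, H2B and H3 promoters in the table but in 3 of 10 H4 promoters, for 85.4% of members against 36.4% of 15843 protein-coding promoters of the same length. TATAAA, the TATA box, was present on either strand in 64.6% of members against 9.63%, and 29 matches on the gene's own strand had a median position of 31 bases upstream of the start site. H2BC4, H2AC8, H2BC14, H2BC17 and H3C4 matched on the opposite strand only. Of 37 distinct TATAAA sites, 9 lay in the windows of 2 members. The octamer ATTTGCAT, bound by POU2F1 and related factors, was found in 8 of 10 H2A and 11 of 14 H2B promoters and in no H1, H3 or H4 promoter, for 39.6% of members against 1.70%. Because head-to-head genes share their windows, these 19 promoters held 13 distinct octamers. AAACACA was found in all 6 H1 promoters, H1-6 included, and in no other member, against 4.24% of all promoters. Members had a median GC content of 42.3% (quartiles 40 to 46.4) compared with 62.7% (54 to 70.3) for all protein-coding promoters.

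**Figure D5:**
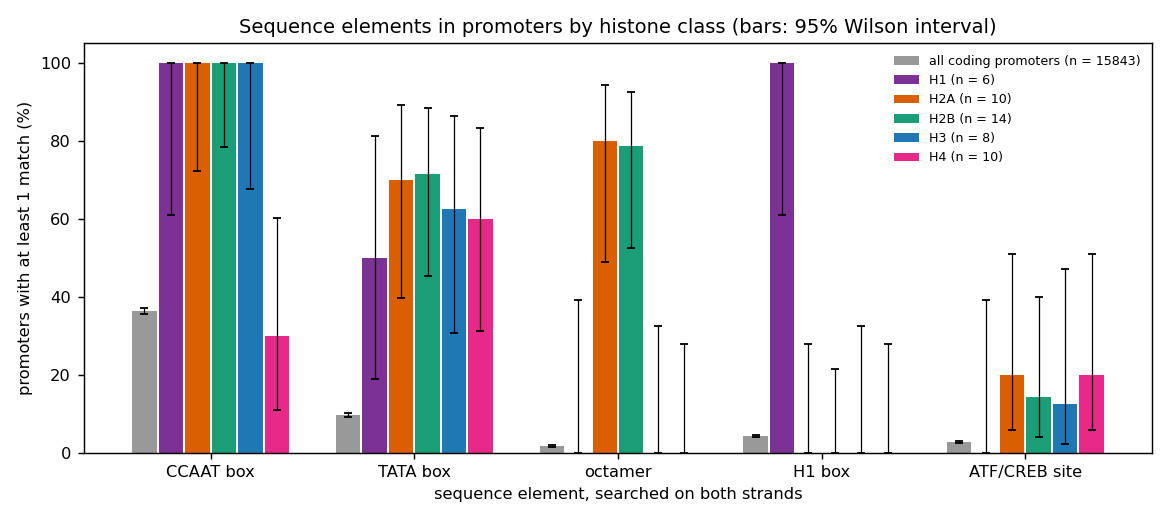
Share of promoters, in percent, with at least 1 match on either strand to CCAAT, the TATA box, the octamer, the H1 box and the ATF/CREB site TGACGTCA, for all protein-coding promoters and each histone class, with 95% Wilson intervals as vertical lines. The octamer appears in H2A and H2B promoters alone and the H1 box in H1 promoters alone among members, while H4 stands at 30% for CCAAT.

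TGACGTCA is the palindrome bound by ATF/CREB proteins, the family whose DNA-binding domain EA1 carries. It occurred in 7 of 48 member promoters (14.6%, interval 7.25 to 27.2) against 2.59% of all protein-coding promoters. They were H3C2, H4C5, H4C8, H2BC12, H2AC14, H2BC14 and H2AC16, with 6 distinct sites since H2AC14 and H2BC14 share one. The first base of the site lay from 99 bases upstream of the start site at H2BC14 to 163 bases upstream at H3C2. All 7 genes had a peak, with widest peaks of 2720 bases at H2AC14 and H2BC14, 3160 at H4C8, 3420 at H2AC16, 3430 at H4C5, 3680 at H3C2 and 4120 at H2BC12. These widths lay within the range of the other members. The looser form of this motif, TGANNTCA, was found in the same 7 promoters and no others, 14.6% against 10.004% of all promoters. TGAGTCA, bound by AP1, was found in 0 of 48 member promoters (upper limit of the interval 7.41%) and in 3.66% of all promoters. A match marks letters in this window and not binding, and EA1 itself was not measured in these samples.

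The other protein-coding genes of the interval were acetylated at about the rate of the genome. A peak lay within 1 kb of 16 of 24 (66.7%, interval 46.7 to 82.03), with a median widest peak of 1455 bases. The interval of this share did not reach the 96.2% of the histone genes. Of the butyrophilin genes, which lie between subclusters 1 and 2, 5 of 6 had a peak and BTN1A1 had none. Of the zinc finger genes, 5 of 7 had one. None of the 3 olfactory receptor genes, which lie beyond subcluster 3, had a peak, and neither did SLC17A2 or POM121L2. The broadest peaks in this group, 4420 bases at HMGN4, a nucleosome-binding protein gene, and 3990 bases at BTN3A2, lay within the range of the histone genes. Within the subclusters there were 2 such genes, HFE and an unnamed gene (ENSG00000282988) that shared the 2380-base peak of H2AC7 and H2BC7.

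Histone genes on other chromosomes and the factors that serve histone expression were read in the same way. Of 15 genes with H2AC, H2BC, H3C or H4C symbols elsewhere, 14 had a peak (93.3%, interval 70.2 to 98.8), with a median widest peak of 3740 bases (range 1040 to 4910), and H2BC12L on chromosome 21 had none. Of 15 histone genes listed as replication-independent, meaning made throughout the cell cycle or in particular tissues, 11 had a peak (73.3%, interval 48.05 to 89.1). That interval holds the 61.7% of all protein-coding genes. The median widest peak of the 11 was 1820 bases. Those without a peak were H3-5, H1-7, H1-8 and H2BW1. The stem-loop was not searched for in these 15 genes. All 22 listed genes for histone transcription and mRNA processing had a peak, among them NPAT with 840 bases, SLBP with 2930, CDK2, which activates NPAT, with 5530, and HINFP, an activator of H4 genes, with 470 bases.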

How the data were processed

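Per the labels and the methods of the study, H3K27ac ChIP and input DNA of SU-CCS-1 were sequenced as 50-base read pairs. Alignment to hg38 used BWA 0.7.10-r789, duplicates and denylisted regions were removed, and the authors called broad peaks with MACS2 2.2.6 against input (versions from the submitters' processing notes). The deposited file gives only start and end coordinates of 30784 peaks, with names that mark them as merged. How the 3 H3K27ac samples were merged is not given in the sources used here, and neither heights nor depth are in the list, so nothing could be tested across replicates. Peak edges were multiples of 10 bases, and no peak was narrower than 400 bases.

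Start sites of all transcripts of GENCODE version 44 protein-coding genes were used, with copies of pseudoautosomal genes on chromosome Y left out. A gene had a peak where a peak lay within 1000 bases of any of its start sites. Shares were given with 95% Wilson intervals (SciPy 1.17.1, Python 3.11.15), which cover counting only. Overlap counting, motif search and word counting were tested on simulated data. Words of 50 bases within 1 kb of each canonical start site were counted in hg38 on both strands. Promoters came from RefSeq (GRCh38.p14), and the 50 entries compared were identical to hg38. Named genes were every member, the other coding genes of the interval, the listed histone and pathway genes, the broadest peaks and the genes nearest to the 1 kb limit. The members and lists were chosen with earlier results of these data known. Alternatives changed the window, the start sites used, the peaks kept, the margin of subclusters and the joining of peaks.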

Additional observations from a re-analysis of the deposited data

How the results depend on the processing

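A total of 81 alternatives over 15 counts, shares and widths were computed, and 80 stayed within 1.5 times the reported value. The exception was the median width of the widest peak at a member, which rose from 2870 to 4500 bases when peaks were joined across gaps of up to 1 kb. The tally is a weak check, since a count near its upper limit, such as 51 of 53, cannot rise by that factor. A rise from 2 to 7 members without a peak still passed. Limiting pairs to 500 bases could change nothing, because no pair was more than 251 bases apart. The count of members with a peak ran from 46, when a start site had to lie inside a peak, to 53 with a window of 3 kb, and was 50 with the widest 50% of peaks, where H4C9 was lost. The corresponding shares of all protein-coding genes were 58.2%, 63.4% and 47.2%. Splitting at gaps over 100 kb instead of 300 kb gave the same 3 subclusters, so the alternatives that used it could not differ. No paired analysis was possible because replicates have no columns of their own in the list, and for the same reason no replicate could be left out in turn. Depth and signal over input are not in the list, so the height of acetylation at these genes, and any difference in it between classes, was not measured.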

Other observations

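The interval also holds 9 histone pseudogenes, and each had a peak within 1 kb. At 8 of them, which lay 276 to 2124 bases from a member start site, the peak was one that also lay at a member. H3C9P, which lies 36654 bases from the nearest member start site, had a peak of its own of 910 bases. The pseudogenes were added after the data had been seen, and the share with a peak was not computed for pseudogenes elsewhere.

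The same stretch of chromosome 6 carries a large cluster of tRNA genes, which are read by RNA polymerase III. Of 100 tRNA genes of the RefSeq table in the interval, 27 had a peak within 1 kb (27%, Wilson interval 19.3 to 36.4), compared with 162 of 343 elsewhere in the genome (47.2%, interval 42.01 to 52.5). All but 1 of the 100 lay outside the histone subclusters, and 1 tRNA gene had a peak that also lay at a member. The tRNA genes were counted after the data had been seen, and the difference was not tested.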
